A study of Mus musculus with 8 samples.

Results

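The complement system was described by 31 genes of liver, chosen by symbol from the GENCODE M21 annotation and all found among the 55335 genes of the deposited count table. They comprised 8 genes of the classical pathway, 5 of the lectin pathway, 3 of the alternative pathway, the shared component C3, 6 of the terminal pathway, 6 regulators and 2 receptors. Liver RNA came from 8 female mice, each an independent animal, all on the NIAAA chronic-plus-binge model, in which ethanol feeding ends with a binge dose. The 4 Ripk1-hepKO mice (28, 34, 37 and 39) lacked Ripk1 in hepatocytes and the 4 Ripk1-Con mice (29, 32, 40 and 41) were their controls. The alleles, the Cre driver, the ages and the strain are not stated in the labels, and livers without ethanol feeding were not analysed here.

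Complement is a cascade of plasma proteins, most of them made by hepatocytes, that marks microbes and damaged cells for uptake and can perforate their membranes. The classical pathway starts when C1q binds antibody or other ligands, the lectin pathway when mannose-binding lectins or ficolins bind sugars, and the alternative pathway through spontaneous activation of C3. All of them meet at C3, whose cleavage leads to cleavage of C5, release of the small inflammatory peptides C3a and C5a, and assembly of the membrane attack complex. C1q and properdin are made mainly by macrophages and other myeloid cells, which in liver are largely Kupffer cells.

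Total counts ran from 28038390 to 67328158 per library. Ripk1 itself averaged 32.5 ± 6.63 CPM (read counts scaled to library size, with TMM factors) in Ripk1-hepKO mice and 37.5 ± 11.2 CPM in Ripk1-Con mice (SD, n = 4 each), with overlapping groups (exact two-sided permutation p = 0.543). The count covers the whole gene and all cell types of the liver, so this value did not check the labels, on which every direction given here rests. Ripk1-hepKO mouse 28 had the highest levels of acute phase and monocyte markers of the 8 mice and Ripk1-Con mouse 40 the lowest, and fold changes were also computed without them.

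Promoters were available for 22 of the 31 members from RefSeq on GRCm38.p6, as 250 bases before and 50 bases from the annotated start. Those of 6 members are shown because the results return to them: C3, the most abundant member; the 3 genes that encode the chains of the C8 protein, of which C8a varied widely and C8g little; and C1qb and C1qc, neighbours on chromosome 4 that varied together. The windows are chr17:57228087-57228386 (minus strand) for C3, chr4:104876349-104876648 (minus) for C8a, chr4:104766067-104766366 (plus) for C8b, chr2:25501670-25501969 (minus) for C8g, chr4:136886151-136886450 (minus) for C1qb and chr4:136892865-136893164 (minus) for C1qc, each printed 5′ to 3′ on the strand of its gene. Capitals mark matches on either strand to the searched motifs: TATAAA for a TATA box, TTGCNNAA for a C/EBP type site, TTCNNNGAA for a STAT type site, GTTAAT for an HNF1 half-site and GAGGAA for a PU.1 type site.
C3: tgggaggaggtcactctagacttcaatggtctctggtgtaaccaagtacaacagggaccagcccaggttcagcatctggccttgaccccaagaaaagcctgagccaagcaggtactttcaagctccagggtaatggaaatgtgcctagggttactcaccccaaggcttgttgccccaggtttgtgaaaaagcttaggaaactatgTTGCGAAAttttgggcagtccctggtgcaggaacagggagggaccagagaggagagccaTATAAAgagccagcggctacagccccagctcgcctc
C8a: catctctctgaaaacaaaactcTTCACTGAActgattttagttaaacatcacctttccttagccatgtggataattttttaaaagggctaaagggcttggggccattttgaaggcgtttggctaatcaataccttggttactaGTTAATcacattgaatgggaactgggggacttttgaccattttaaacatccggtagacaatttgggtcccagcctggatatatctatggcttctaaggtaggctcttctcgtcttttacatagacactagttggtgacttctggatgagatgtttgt
C8b: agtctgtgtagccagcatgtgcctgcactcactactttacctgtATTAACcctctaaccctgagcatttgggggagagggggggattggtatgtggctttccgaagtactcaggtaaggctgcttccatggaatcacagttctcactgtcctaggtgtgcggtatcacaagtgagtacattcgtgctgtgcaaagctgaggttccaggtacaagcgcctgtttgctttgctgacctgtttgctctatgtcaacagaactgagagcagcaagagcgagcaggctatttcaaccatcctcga
C8g: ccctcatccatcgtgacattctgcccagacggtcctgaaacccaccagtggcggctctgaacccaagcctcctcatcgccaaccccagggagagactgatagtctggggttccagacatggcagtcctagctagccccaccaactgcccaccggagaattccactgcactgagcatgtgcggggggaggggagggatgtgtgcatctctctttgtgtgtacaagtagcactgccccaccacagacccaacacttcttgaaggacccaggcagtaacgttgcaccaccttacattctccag
C1qb: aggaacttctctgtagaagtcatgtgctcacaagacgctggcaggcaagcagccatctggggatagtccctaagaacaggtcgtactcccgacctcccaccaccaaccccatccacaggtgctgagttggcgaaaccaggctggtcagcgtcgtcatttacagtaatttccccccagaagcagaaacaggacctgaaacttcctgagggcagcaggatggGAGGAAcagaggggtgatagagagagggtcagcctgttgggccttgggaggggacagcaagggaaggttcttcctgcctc
C1qc: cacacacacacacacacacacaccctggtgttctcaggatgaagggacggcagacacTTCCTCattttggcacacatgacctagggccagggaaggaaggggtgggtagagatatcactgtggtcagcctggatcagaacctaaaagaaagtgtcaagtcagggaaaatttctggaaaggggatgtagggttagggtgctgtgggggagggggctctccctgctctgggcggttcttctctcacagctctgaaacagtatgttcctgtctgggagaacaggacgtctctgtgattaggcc
C3 held a C/EBP-type match that began 45 bases before the annotated start and the letters TATAAA that began 14 bases past it. Whether these letters act as a TATA box was not tested. C8a held a STAT-type match, whose pattern reads alike on both strands, and an HNF1 half-site, C8b an HNF1 half-site, and C8g none of the 5 motifs. C1qb and C1qc each held 1 PU.1-type match, on the strand of the gene in C1qb and on the opposite strand in C1qc. No 2 matches overlapped except the STAT-type match on both strands. Among 32851 RefSeq promoters of the same length, the TATA box letters occurred in 13.6%, the C/EBP type in 10.8%, the STAT type in 8.30%, the HNF1 half-site in 7.10% and the PU.1 type in 28.3%, so each match is a description of letters and not of a bound factor.

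No complement gene passed the test for a difference between the genotypes. Of the 31 members, 30 had enough counts to be tested and 1, Cfd, was listed at 0. By edgeR's quasi-likelihood test with Benjamini-Hochberg adjustment over 15234 genes, 0 members were called at an FDR of 0.05 (lowest adjusted p of a member 0.770), against 0% of all genes tested. At an unadjusted p under 0.05 there were 0 members, against 6.68% of all genes, and in 0 members were the groups free of overlap, against 4.10% of all genes. The DESeq2 Wald test called 36 genes, none of them a member, and limma voom called 0 genes. Of the 30 tested members 16 lay above a log2 fold change of 0 (Ripk1-hepKO over Ripk1-Con) and 14 below, with a median of 0.04, while 51.8% of all genes tested lay above 0 with a median of 0.01.

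The fit also gave a range for the difference of each single gene, with intervals not adjusted for the number of genes tested. The 95% confidence interval of the fold change lay within 2-fold in either direction for 24 of the 30 members and within 1.5-fold for 14. This interval reached past 2-fold for C1qa, C1qb, C1qc, C8a, C3ar1 and C5ar1. For 27 members the difference of group means in log2(CPM + 1) was smaller than the pooled SD between mice. That SD describes single mice and does not bound a difference of means. The shares of all genes below their SD, or with intervals within these folds, were not computed.

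**Figure D1:**
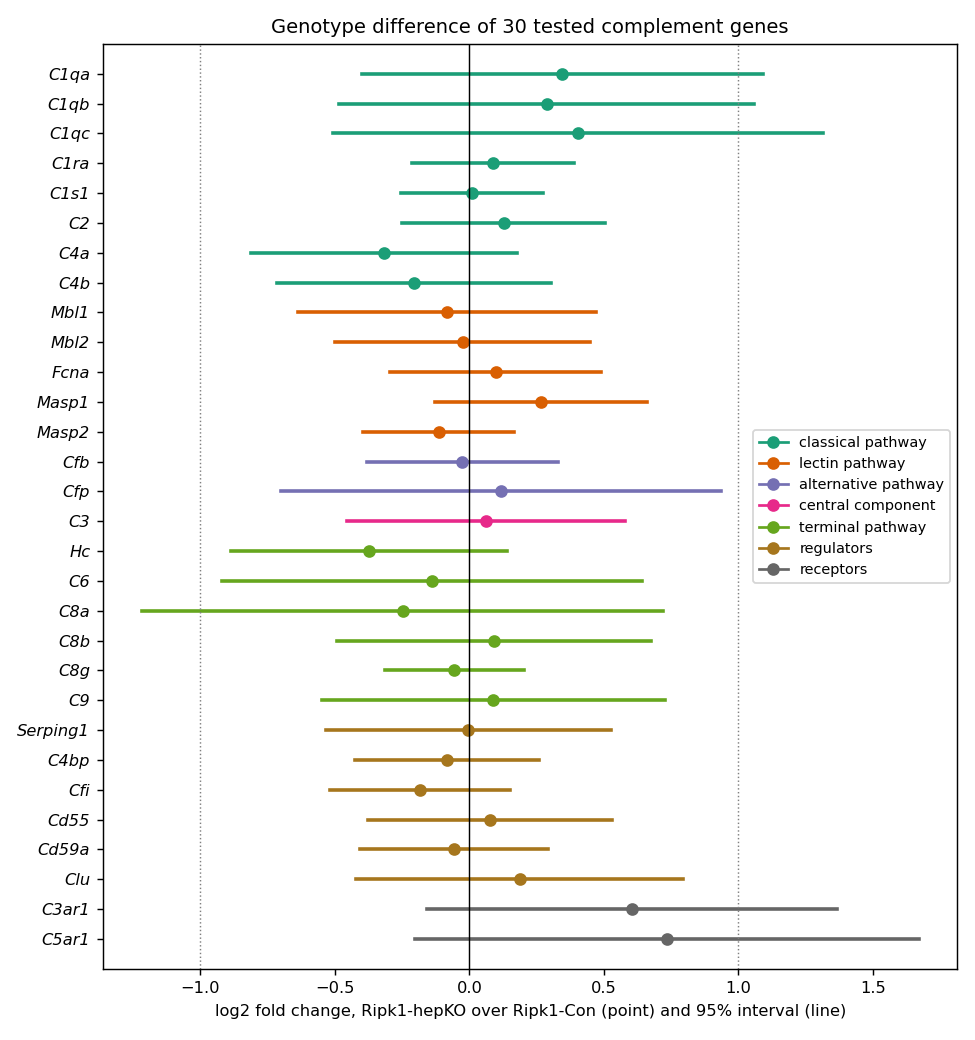
Log2 fold change of the 30 tested complement genes, Ripk1-hepKO over Ripk1-Con (points, edgeR), with 95% confidence intervals (lines) coloured by role; dotted lines mark 2-fold. Every interval crosses 0, and the 2 receptors at the bottom lie farthest to the right at 0.60 and 0.73.

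Transcript levels per length spanned a wide range. On the scale of CPM per kilobase of exon, averaged over 8 mice, C3 stood at 2915, followed by Cfb at 466, Clu at 404, C4b at 333, Serping1 at 317, Mbl2 at 312 and Cfi at 276. The single mice of Cfb (366.8 to 582 CPM per kilobase) overlapped those of Clu (275 to 645), C4b (219.6 to 443), Serping1 (206 to 432) and Mbl2 (241 to 452), and those of Cfi (215.5 to 345) overlapped all of these but Cfb, so the order below C3 is within the spread between neighbours. C3 did not overlap any other member, as its lowest mouse stood at 1917 CPM per kilobase and the highest mouse of any other member was that of Clu. The lowest levels were those of the receptors, with C5ar1 at 1.27 and C3ar1 at 0.759 CPM per kilobase. All 31 members together took 2.51 ± 0.528% of the scaled counts in Ripk1-hepKO mice and 2.49 ± 0.524% in Ripk1-Con mice (SD, n = 4 each).

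**Figure D2:**
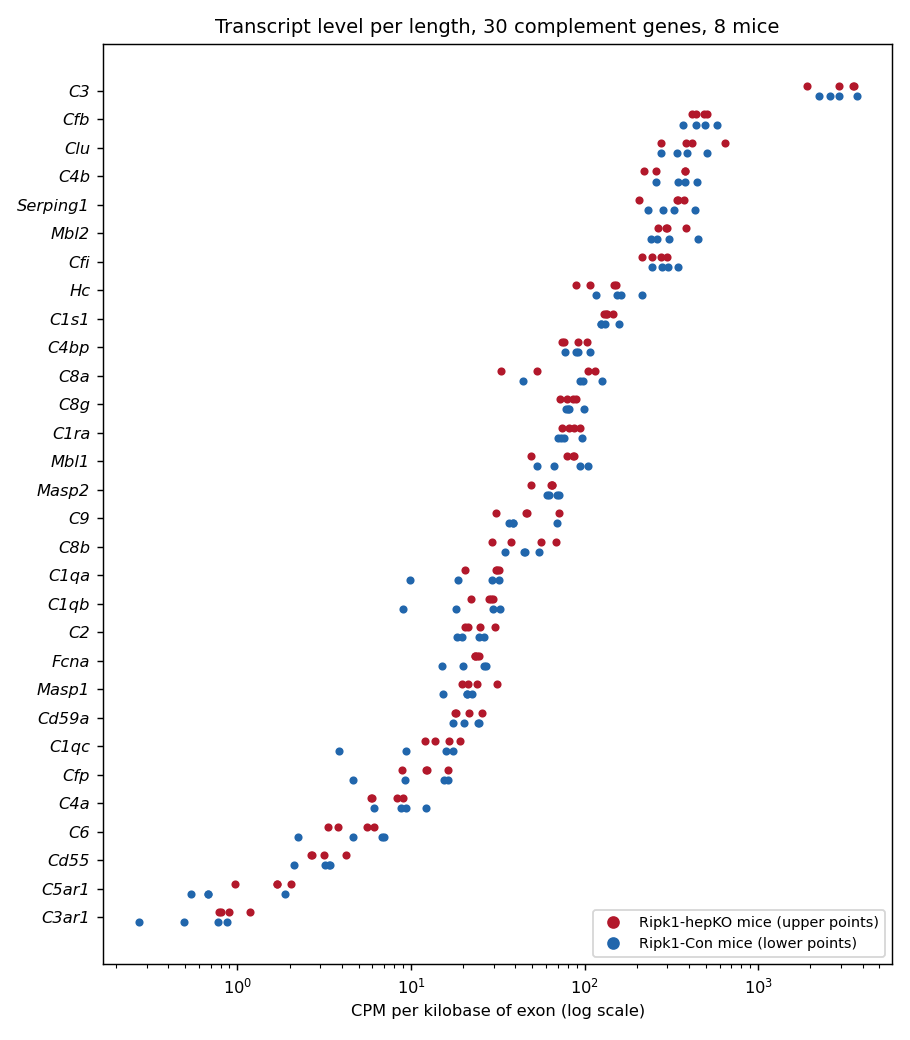
Level of 30 complement genes in CPM per kilobase of exon (log scale), with Ripk1-hepKO mice as upper and Ripk1-Con mice as lower points. C3 lies above all other members, C3ar1 and C5ar1 lie lowest, and the groups overlap in every row; Cfd, at 0, is not drawn.

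C3, the protein at which the activation pathways meet (ENSMUSG00000024164, chromosome 17, 57203970 to 57228136, minus strand, GRCm38), stood at 18325, 18117, 14957 and 9857 CPM in livers of Ripk1-hepKO mice 28, 34, 37 and 39, compared with 14949.5, 18977, 11477 and 13275 CPM in Ripk1-Con mice 29, 32, 40 and 41. Both groups held high and low mice, with Ripk1-hepKO mouse 39 the lowest and Ripk1-Con mouse 32 the highest of the 8. Its log2 fold change came to 0.06 ± 0.23 (SE; edgeR adjusted p = 0.968), with a 95% interval of 73.0% to 149% of the Ripk1-Con level. Leaving out mice 28 and 40 gave -0.14.

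In the classical pathway, 6 of the 8 members lay above 0 and 2 below, at a median log2 fold change of 0.11, and none was called. C1qa, a chain of the recognition molecule C1q (ENSMUSG00000036887, chromosome 4, 136895917 to 136898803), stood at 32.7, 33.5, 32.1 and 21.4 CPM in livers of Ripk1-hepKO mice 28, 34, 37 and 39, compared with 19.5, 33.6, 10.3 and 30.6 CPM in Ripk1-Con mice 29, 32, 40 and 41. Mouse 40 was far below the rest, and mice 32 and 41 were level with the higher Ripk1-hepKO mice. C1qa averaged 29.9 ± 5.75 CPM in Ripk1-hepKO mice and 23.5 ± 10.7 CPM in Ripk1-Con mice (log2 fold change 0.35 ± 0.33 SE, edgeR adjusted p = 0.846). C1qb and C1qc, the other chains, gave log2 fold changes of 0.29 ± 0.34 and 0.40 ± 0.40 (SE; edgeR adjusted p = 0.880 and 0.852), and without mice 28 and 40 they were -0.0053 and -0.01, against 0.054 for C1qa. Leaving out single mice moved C1qa between 0.11 (without mouse 40) and 0.57 (without mouse 32), C1qb between 0.035 and 0.53, and C1qc between 0.12 and 0.67, at the same mice. In bulk liver, fewer macrophages and less C1q RNA per macrophage cannot be told apart.

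The proteases of the C1 complex were among the steadiest members. C1s1 averaged 425 ± 23.2 CPM in Ripk1-hepKO mice and 422 ± 51.0 CPM in Ripk1-Con mice, with a 95% interval of 83.9% to 121% of the Ripk1-Con level. C1ra averaged 251 ± 25.4 CPM in Ripk1-hepKO mice and 237 ± 36.0 CPM in Ripk1-Con mice, and shares 34.5% of its 100-base words with its copy C1rb. C2, the protease of the classical C3 convertase, averaged 94.3 ± 18.1 CPM in Ripk1-hepKO mice and 86.3 ± 15.0 CPM in Ripk1-Con mice. C2 shares an annotated read-through gene, Gm20547, with its neighbour Cfb, and that gene was at 0 counts in every library.

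C4 is encoded by a pair of closely related genes. C4b, the main C4 gene (ENSMUSG00000073418, chromosome 17, 34728380 to 34743882, minus strand), stood at 1473, 2145, 2169 and 1251 CPM in livers of Ripk1-hepKO mice 28, 34, 37 and 39, compared with 2162, 2525, 1470.2 and 1955.5 CPM in Ripk1-Con mice 29, 32, 40 and 41. C4a, the sex-limited protein gene and the classical member of smallest p (ENSMUSG00000015451, chromosome 17, 34809092 to 34823464, annotated as a processed transcript), stood at 36.6, 55.8, 51.9 and 37.1 CPM in livers of Ripk1-hepKO mice, compared with 54.2, 75.7, 38.1 and 57.9 CPM in Ripk1-Con mice in the same order. In both genes mouse 32 was the highest, and mice 28, 39 and 40 were the 3 lowest. The log2 fold changes were -0.20 ± 0.23 for C4b and -0.32 ± 0.22 for C4a (SE; edgeR adjusted p = 0.869 and 0.795). C4b moved to -0.07 without mouse 39, -0.08 without mouse 32, -0.13 without mouse 28 and -0.32 without mouse 40. C4a moved to -0.14 without mouse 32 and to -0.46 without mouse 40 (unadjusted p = 0.0444; edgeR adjusted p = 0.648). C4b exceeded C4a by 33.7- to 41.8-fold in Ripk1-hepKO mice and by 33.4- to 39.9-fold in Ripk1-Con mice. Of all 100-base words in C4a transcripts, 13.1% also occur in C4b, so part of the C4a count could be reads of C4b. Counted as 1 gene, the pair gave a log2 fold change of -0.21.

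In the lectin pathway, 2 of the 5 members lay above 0 and 3 below, at a median log2 fold change of -0.03, and none was called. Mbl2, mannose-binding lectin C (ENSMUSG00000024863, chromosome 19, 30232942 to 30239687), stood at 417, 288, 319 and 324 CPM in livers of Ripk1-hepKO mice 28, 34, 37 and 39, compared with 283, 492, 334 and 263 CPM in Ripk1-Con mice 29, 32, 40 and 41. Mice 28 and 32 were the highest of their groups, and the remaining 6 lay close together (log2 fold change -0.03 ± 0.21 SE, edgeR adjusted p = 0.989). Mbl1, mannose-binding lectin A, averaged 118 ± 27.6 CPM in Ripk1-hepKO mice and 125 ± 37.1 CPM in Ripk1-Con mice.

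Masp1, a protease that mannose-binding lectins and ficolins carry and the lectin member of smallest p (ENSMUSG00000022887, chromosome 16, 23449417 to 23520815), stood at 307, 235, 209 and 194 CPM in livers of Ripk1-hepKO mice, compared with 150.5, 207, 221 and 208 CPM in Ripk1-Con mice. Its highest values were those of mice 28 and 34, while mice 37 and 39 lay within the control range. The log2 fold change was 0.27 ± 0.18 (SE; edgeR adjusted p = 0.788), 0.12 without mouse 28 and 0.16 without mouse 29. Masp2, the protease that cleaves C4 and C2, averaged 201 ± 26.3 CPM in Ripk1-hepKO mice and 218 ± 17.4 CPM in Ripk1-Con mice. Fcna, ficolin A, a lectin of macrophages in mice, averaged 32.7 ± 0.937 CPM in Ripk1-hepKO mice and 30.5 ± 7.81 CPM in Ripk1-Con mice. Masp2 overlaps Tardbp on the opposite strand, so some of its reads could belong there if strand was not used in counting.

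Of the alternative pathway, Cfb and Cfp were tested and Cfd was not. Cfb, factor B, the protease of the alternative convertase (ENSMUSG00000090231, chromosome 17, 34856374 to 34862518), stood at 1439.6, 1246, 1370.4 and 1169.5 CPM in livers of Ripk1-hepKO mice 28, 34, 37 and 39, compared with 1398, 1644, 1036 and 1240.3 CPM in Ripk1-Con mice 29, 32, 40 and 41. All Ripk1-hepKO mice lay inside the range of the Ripk1-Con mice (log2 fold change -0.03 ± 0.16 SE, edgeR adjusted p = 0.983). Cfp, properdin, which stabilises that convertase (ENSMUSG00000001128, chromosome X, 20925454 to 20931555), stood at 28.2, 21.2, 21.3 and 15.5 CPM in livers of Ripk1-hepKO mice, compared with 16.0, 26.9, 8.003 and 28.5 CPM in Ripk1-Con mice. Mouse 40 was again the lowest (log2 fold change 0.12 ± 0.36 SE, edgeR adjusted p = 0.961).

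Cfd, factor D or adipsin, cleaves factor B and is best known as a product of adipocytes (ENSMUSG00000061780, chromosome 10, 79890853 to 79892655, plus strand). It had 0 counts in every one of the 8 libraries. A count of 0 allows up to 3 counts, or 0.0446 to 0.107 CPM per library, counting error only. Of genes near it, Prtn3 had 10 to 492 counts per library, Elane 0 to 30 and Med16 315 to 704. The 7 adipose tissue markers summed to 374 to 571 CPM in Ripk1-hepKO livers and 396 to 542 CPM in Ripk1-Con livers. Only 3 of the 7 had enough counts to be tested, and Plin1 and Lep were at 0 in all libraries. The sum thus comes from few genes and does not show how much adipose tissue the samples held. Whether the counting could have assigned reads to Cfd cannot be read from a count table, so its 0 is a listed value.

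In the terminal pathway, 2 of the 6 members lay above 0 and 4 below, at a median log2 fold change of -0.10, and none was called. Hc, which encodes C5 (ENSMUSG00000026874, chromosome 2, 34983331 to 35061438), stood at 673, 931, 956 and 561 CPM in livers of Ripk1-hepKO mice 28, 34, 37 and 39, compared with 1016, 1342, 727 and 959 CPM in Ripk1-Con mice 29, 32, 40 and 41. All 4 Ripk1-hepKO mice were below 3 of the 4 Ripk1-Con mice, and Ripk1-Con mouse 40 lay among the Ripk1-hepKO values. Hc had the smallest p of the pathway and the lowest fold change of all members, at -0.37 ± 0.23 on the log2 scale (SE; edgeR adjusted p = 0.779), with an interval from 54.0% to 110% of the control level. Without mouse 32 it was -0.21, and without mouse 40 it was -0.49. Markers of hepatocytes, the main source of C5, also lay mostly below 0: 12 of 13, with a median log2 fold change of -0.18. Of these markers 0 were called and 2 had an unadjusted p under 0.05 by edgeR. Among all genes tested, 51.8% lay above 0 and 6.68% had an unadjusted p under 0.05. Of 14 markers listed, Tf was not found by that symbol. The summed level of the 13 markers ran from 108605 to 127236 CPM in Ripk1-hepKO livers and from 122028 to 148350 CPM in Ripk1-Con livers. The part of hepatocyte content in the Hc values was not tested.

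Relative to C3 in the same mouse, Hc stood at 3.67%, 5.14%, 6.39% and 5.69% in livers of Ripk1-hepKO mice 28, 34, 37 and 39, compared with 6.80%, 7.07%, 6.34% and 7.22% in Ripk1-Con mice 29, 32, 40 and 41. Ripk1-hepKO mouse 37 overlapped with Ripk1-Con mouse 40. This ratio of CPM values was 1 of 6 ratios and shares chosen after the values had been seen (exact two-sided permutation p = 0.0571, adjusted p = 0.343 over the 6, where 4 against 4 mice allow no p below 0.0286).

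The chains of C8, a component of the membrane attack complex, did not vary alike. C8a, which encodes the alpha chain, stood at 194, 380.4, 419.8 and 121 CPM in livers of Ripk1-hepKO mice 28, 34, 37 and 39, compared with 358, 460.5, 161 and 344 CPM in Ripk1-Con mice 29, 32, 40 and 41, a 3.82-fold range. C8b, which encodes the beta chain, ranged 2.34-fold, with the same mouse 39 lowest, and C8g, which encodes the gamma chain, ranged 1.37-fold. C8g overlaps Fbxw5, which could add reads to it. The ratio of C8a to C8g in CPM was therefore 1.63, 3.52, 3.16 and 0.948 in livers of Ripk1-hepKO mice, compared with 2.43, 3.79, 1.377 and 2.86 in Ripk1-Con mice. Low ratios occurred in both groups, in mice 28, 39 and 40, and the test of the ratio between genotypes did not pass (exact two-sided permutation p = 0.743, adjusted p = 0.971).

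C9, which polymerises into the membrane pore (ENSMUSG00000022149, chromosome 15, 6445327 to 6498751), stood at 119.8, 118, 182 and 78.8 CPM in livers of Ripk1-hepKO mice, compared with 98.7, 177, 99.0 and 94.1 CPM in Ripk1-Con mice. Mice 37 and 32, one of each genotype, were far above the others (log2 fold change 0.09 ± 0.28 SE, edgeR adjusted p = 0.962). C6 averaged 16.7 ± 4.82 CPM in Ripk1-hepKO mice and 18.4 ± 7.92 CPM in Ripk1-Con mice, with mouse 40 the lowest at 7.94 CPM.

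Among the regulators, 2 of 6 lay above 0 and 4 below, at a median log2 fold change of -0.03, and none was called. Serping1, the C1 inhibitor (ENSMUSG00000023224, chromosome 2, 84765387 to 84775444), stood at 804, 793, 871 and 478 CPM in livers of Ripk1-hepKO mice 28, 34, 37 and 39, compared with 757, 1004, 537 and 656 CPM in Ripk1-Con mice 29, 32, 40 and 41. It averaged 737 ± 176 CPM in Ripk1-hepKO mice and 738 ± 199 CPM in Ripk1-Con mice, with mouse 39 the lowest of the 8. Cfi, the protease that inactivates C3b and C4b and the regulator of smallest p (ENSMUSG00000058952, chromosome 3, 129835884 to 129875332), stood at 542, 612, 663 and 478 CPM in livers of Ripk1-hepKO mice, compared with 669, 766, 545 and 623 CPM in Ripk1-Con mice (log2 fold change -0.18 ± 0.15 SE, edgeR adjusted p = 0.819).

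C4bp, the cofactor that binds C4b, averaged 580.5 ± 93.8 CPM in Ripk1-hepKO mice and 615 ± 82.1 CPM in Ripk1-Con mice. Clu, clusterin, which binds forming membrane attack complexes, averaged 1478 ± 533 CPM in Ripk1-hepKO mice and 1298 ± 333 CPM in Ripk1-Con mice, with mouse 28 the highest at 2216 CPM. Cd55, which dissociates convertases on cell surfaces, averaged 15.4 ± 3.53 CPM in Ripk1-hepKO mice and 14.6 ± 2.95 CPM in Ripk1-Con mice. Cd59a, which blocks pore assembly, averaged 37.8 ± 6.46 CPM in Ripk1-hepKO mice and 39.3 ± 6.18 CPM in Ripk1-Con mice.

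The receptors had the highest fold changes and the lowest levels of the tested members. C3ar1, the receptor of C3a (ENSMUSG00000040552, chromosome 6, 122847138 to 122856161), stood at 5.11, 3.37, 3.46 and 3.86 CPM in livers of Ripk1-hepKO mice 28, 34, 37 and 39, compared with 2.11, 3.73, 1.16 and 3.32 CPM in Ripk1-Con mice 29, 32, 40 and 41. C5ar1, the receptor of C5a (ENSMUSG00000049130, chromosome 7, 16246743 to 16259540), stood at 5.22, 4.35, 4.32 and 2.47 CPM in livers of Ripk1-hepKO mice, compared with 1.74, 4.85, 1.39 and 1.73 CPM in Ripk1-Con mice. In C5ar1 all Ripk1-hepKO mice were above 3 of the 4 Ripk1-Con mice, and mouse 32 overlapped them.

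The log2 fold changes were 0.60 ± 0.34 for C3ar1 and 0.73 ± 0.42 for C5ar1 (SE; edgeR adjusted p = 0.770 each), with intervals from 89.6% to 258% and from 87.0% to 318% of the control level. Leaving out single mice moved C5ar1 between 0.56 without mouse 40 (unadjusted p = 0.227; edgeR adjusted p = 0.765) and 1.33 without mouse 32 (unadjusted p = 0.00159; edgeR adjusted p = 0.900), where mouse 32 was the control with the highest value. C3ar1 moved between 0.38 without mouse 40 (unadjusted p = 0.184; edgeR adjusted p = 0.739) and 0.84 without mouse 32 (unadjusted p = 0.0433; edgeR adjusted p = 0.900). Leaving out mice 28 and 40 gave 0.40 for C5ar1 and 0.22 for C3ar1. Both genes are expressed mainly by myeloid cells. Summed levels of the 10 monocyte and recruited macrophage markers ran from 36.9 to 104 CPM in Ripk1-hepKO livers and from 32.6 to 62.2 CPM in Ripk1-Con livers. Those of the 10 neutrophil markers ran from 10.1 to 50.5 CPM in Ripk1-hepKO livers and from 3.62 to 33.9 CPM in Ripk1-Con livers. Mouse 40 was the lowest in both lists, and the part of these cells in the receptor values was not tested.

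**Figure D3:**
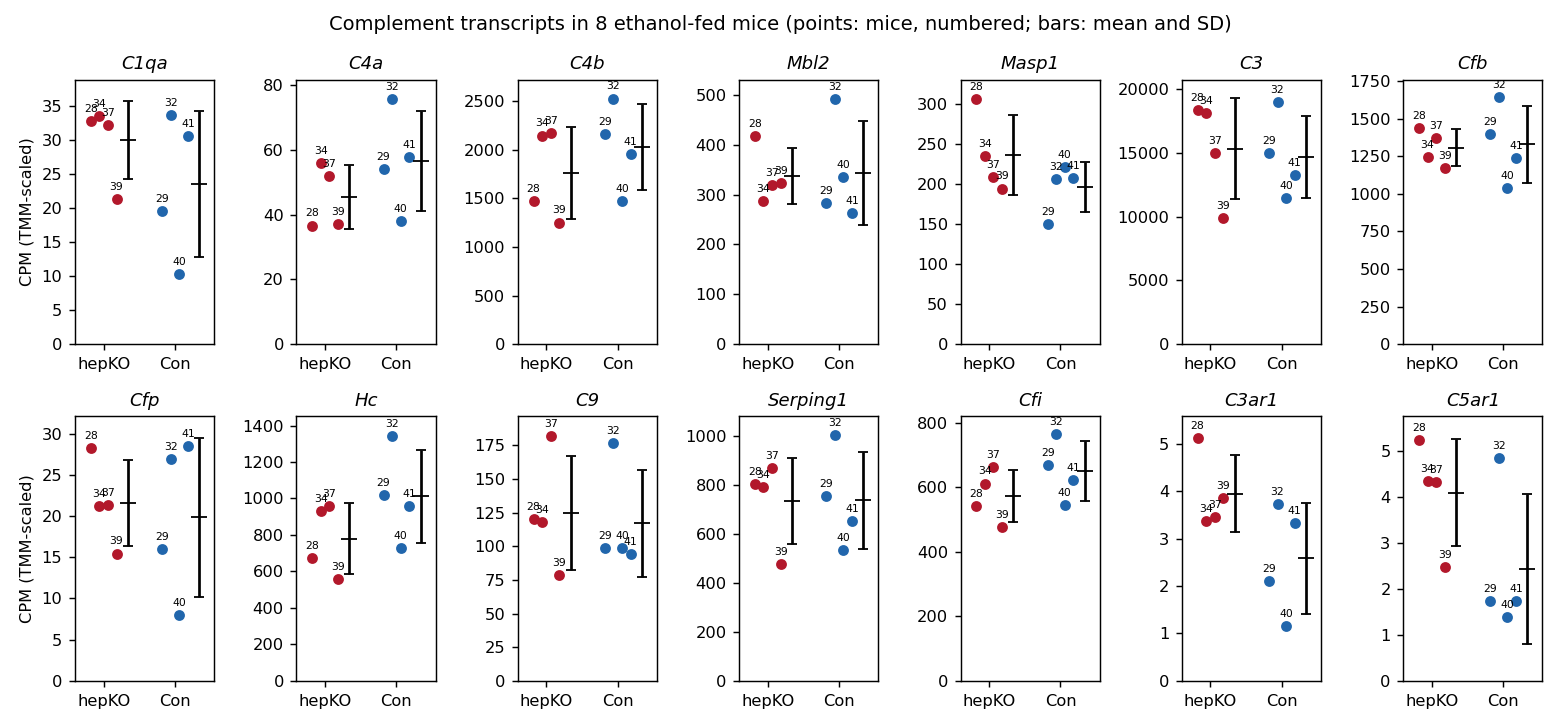
CPM (TMM-scaled, linear axes from 0) of 14 complement genes in each mouse, Ripk1-hepKO left and Ripk1-Con right, with mean and SD beside the points (n = 4 each). The groups overlap in every panel, and mice 39 and 40 are often the lowest of their groups, as in C3 at 9857 and 11477 CPM.

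Complement levels spread widely between single mice of both genotypes. The highest mouse exceeded the lowest by a median of 2.05-fold over the 30 tested members, against 1.74-fold over the 12486 genes with a mean of 1 CPM or more. The range was widest in C1qc (5.01-fold), C3ar1 (4.40-fold), C8a (3.82-fold) and C5ar1 (3.75-fold) and narrowest in C1s1 (1.28-fold) and C8g (1.37-fold). Ripk1-hepKO mouse 39 was the lowest of the 8 mice in 10 members and Ripk1-Con mouse 40 in another 10, while Ripk1-Con mouse 32 was the highest in 14. The shares of all genes with these mice lowest or highest were not computed, so these counts may not be particular to complement. As a median over members of log2(CPM + 1) minus the gene's mean, mouse 39 stood at -0.20, mouse 40 at -0.34 and mouse 32 at 0.36, and the other 5 mice between -0.00283 and 0.12. The TMM factor was 1.113 in mouse 39, 1.075 in mouse 40 and 0.919 in mouse 32. Mouse 28, whose median was 0.089, had a factor of 0.918. Mouse 40 also had the smallest library and mouse 32 the largest. How far these medians depend on scaling or depth was not tested.

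These low mice had low acute phase genes as well. The level of 15 acute phase genes, as mean log2(CPM + 1), was 9.999, 9.53, 8.93 and 7.71 in livers of Ripk1-hepKO mice 28, 34, 37 and 39, compared with 9.30, 9.34, 7.32 and 8.78 in Ripk1-Con mice 29, 32, 40 and 41. Saa1, a serum amyloid of the acute phase, stood at 3984, 1901, 396 and 100.3 CPM in Ripk1-hepKO mice 28, 34, 37 and 39. In Ripk1-Con mice 29, 32, 40 and 41 it stood at 2652, 675, 38.5 and 1169 CPM. Mouse 32, with the highest median over the complement members, was thus below mice 28, 34, 29 and 41 in Saa1. Mouse 28, the highest in acute phase genes, was high in C3 and Clu but low in Hc, C8a, C4a and Masp2. The part of the acute phase response in the complement values was not tested.

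**Figure D4:**
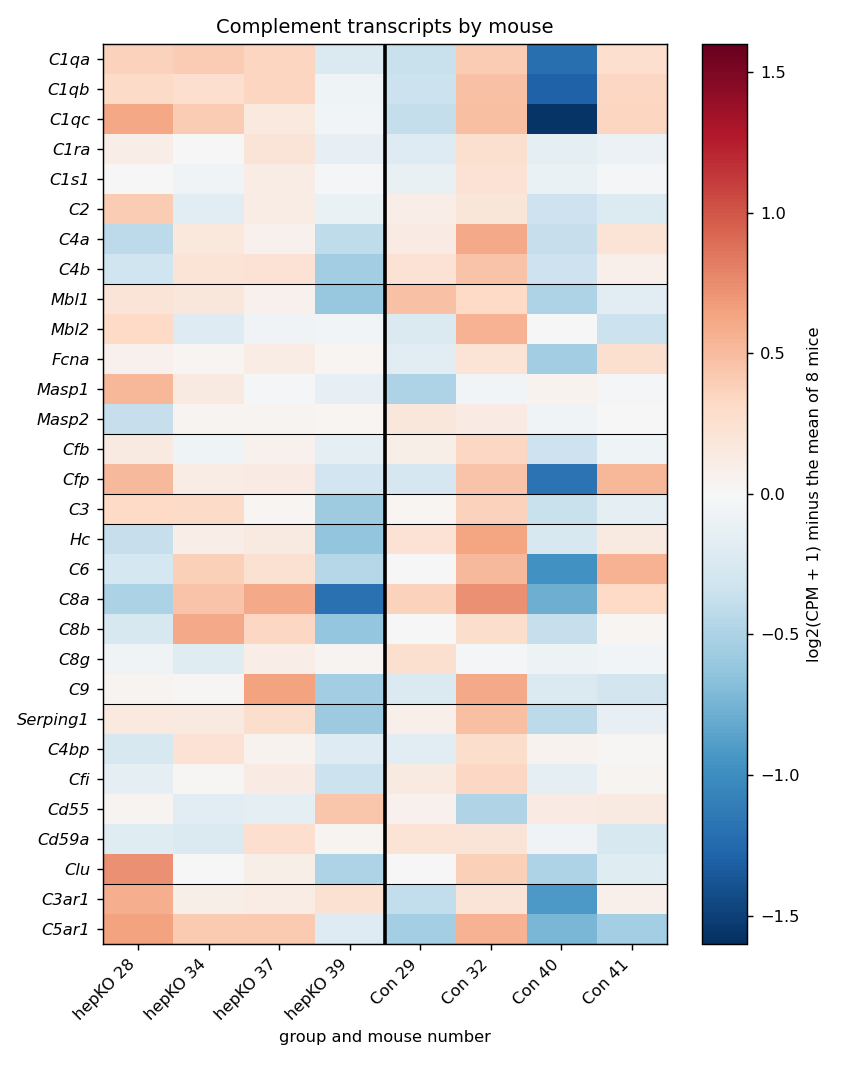
Log2(CPM + 1) of the 30 tested complement genes minus each gene's mean over 8 mice, with Ripk1-hepKO mice left and Ripk1-Con mice right of the thick line; thin lines separate the roles. Mouse 39 in the left block and mouse 40 in the right block are mostly blue (low), mouse 32 mostly red (high), and C8g and C1s1 stay pale.

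The complement genes of macrophages followed the Kupffer cell markers from mouse to mouse. The level of 10 such markers, none of them a member, was 4.79, 4.66, 4.75 and 4.37 in livers of Ripk1-hepKO mice 28, 34, 37 and 39, compared with 4.22, 4.90, 3.35 and 5.05 in Ripk1-Con mice 29, 32, 40 and 41, as mean log2(CPM + 1). Their summed level ran from 364 to 459 CPM in Ripk1-hepKO livers and from 230.1 to 561 CPM in Ripk1-Con mice, and none was at 0. Over the 8 mice, Pearson's r with this level was 0.96 for C1qa, 0.98 for C1qb, 0.96 for C1qc, 0.98 for Fcna and 0.98 for Cfp (exact permutation p = 0.00454, 7.192e-04, 0.00231, 9.92e-05 and 3.968e-04; adjusted p = 0.00636, 0.00168, 0.00404, 6.945e-04 and 0.00139 over 7 relations). Spearman's rho was 0.69, 0.88, 0.79, 0.95 and 0.95 for the same genes (exact permutation adjusted p = 0.0972, 0.0169, 0.0489, 0.00399 and 0.00399).

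Without mice 29 and 40, the farthest from the median marker level, r was 0.92 for Cfp, 0.86 for Fcna, 0.85 for C1qb, 0.71 for C1qa and 0.62 for C1qc over 6 mice. Only Fcna and Cfp kept p under 0.05 (exact permutation p = 0.0139 and 0.00694 over 6 mice). The relations of C1qa, C1qb and C1qc did not pass without mice 29 and 40 (exact permutation p = 0.169, 0.0514 and 0.175). With 6 mice and a narrower range of marker levels, this cannot tell a weaker relation from a loss of power. The difference between the C1q genes and Fcna or Cfp was not tested. The receptors followed the markers less closely: r was 0.85 for C3ar1 and 0.60 for C5ar1 (exact permutation adjusted p = 0.0209 and 0.0881), with a rho of 0.45 for each (adjusted p = 0.268), and without mice 29 and 40 r was -0.14 and -0.05. The difference between the receptors and the other genes was not tested, and 4 mice are too few for a correlation within a genotype. The relation planned for Cfd with adipose markers could not be computed, as Cfd was at 0.

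**Figure D5:**
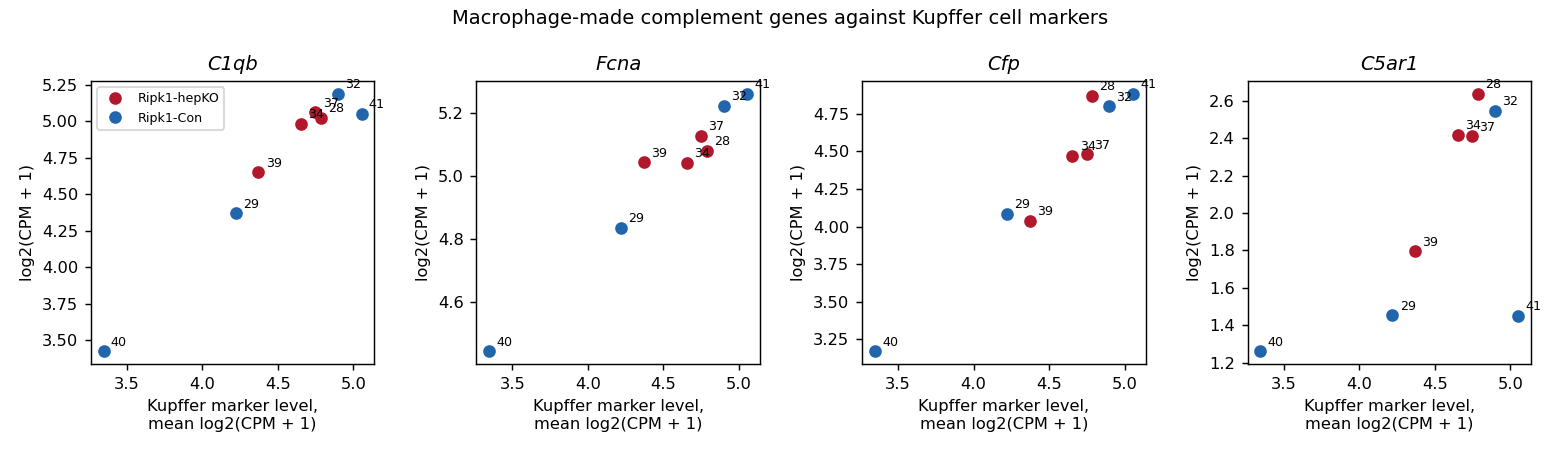
Log2(CPM + 1) of C1qb, Fcna, Cfp and C5ar1 against the mean log2(CPM + 1) of 10 Kupffer cell markers, each point a mouse with its number (Ripk1-hepKO red, Ripk1-Con blue). The first 3 genes rise with the markers with r of 0.98, and mouse 40 lies at the lower left; without mice 29 and 40 r is 0.85, 0.86 and 0.92, and that of C1qb no longer passes; C5ar1 has mouse 41 far below the trend of the others.

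Of 27 further genes of the complement system, 23 were tested, 11 above 0 and 12 below, the median log2 fold change was -0.03, and 0 were called in either direction. The 3 of smallest p were Cd93, Cpn1 and Cfhr2 (edgeR unadjusted p = 0.0328, 0.0416 and 0.0620). Of the 23, 1 gene above 0 and 1 below had an unadjusted p under 0.05, against 6.68% of all genes tested. Cd93, once described as a C1q receptor, stood at 20.95, 9.90, 7.36 and 12.5 CPM in livers of Ripk1-hepKO mice 28, 34, 37 and 39, compared with 8.47, 5.96, 7.14 and 8.64 CPM in Ripk1-Con mice 29, 32, 40 and 41 (log2 fold change 0.75 ± 0.30 SE, edgeR adjusted p = 0.742). Mouse 28 was the highest, and mouse 37 lay within the control range.

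Cpn1, the catalytic subunit of carboxypeptidase N, which trims C3a and C5a, stood at 169, 179, 196 and 149.8 CPM in livers of Ripk1-hepKO mice, compared with 225, 249, 186 and 199.5 CPM in Ripk1-Con mice (log2 fold change -0.31 ± 0.13 SE, edgeR adjusted p = 0.742). Only mouse 37 of the Ripk1-hepKO group reached into the control range, above mouse 40. Cfhr2 averaged 351 ± 36.2 CPM in Ripk1-hepKO mice and 421 ± 46.7 CPM in Ripk1-Con mice (log2 fold change -0.26 ± 0.12 SE, edgeR adjusted p = 0.752).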

How the data were processed

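The authors deposited whole-number counts per Ensembl gene, not normalized, in 1 table of 8 libraries. The labels' protocols describe TRIzol extraction, poly(A) selection and dUTP strand marking with paired reads. Tools listed in the submitters' processing notes, without roles, are STAR 2.5.2b, FastQC 0.11.5, DESeq2 1.38.1 and StringTie 2.2.1, on GRCm38.p6. Which tool counted, with which annotation and strand option, is not given in the sources used here, so overlapping genes and close paralogs are uncertain. GENCODE M21 (GRCm38) supplied symbols and exon lengths.

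The genotype fit used edgeR 4.0.16 (R 4.3.3) with filterByExpr, TMM scaling and a robust quasi-likelihood test, Benjamini-Hochberg adjusted over 15234 genes at an FDR of 0.05, and was tested on simulated data. SEs come from the quasi-likelihood F. Libraries held 28038390 to 67328158 counts, and the lowest count of a tested member was 35. Marker levels are means of log2(CPM + 1), and correlations were tested by exact permutation over 40320 pairings.

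The members and lists were chosen with earlier results of these data known. Values per mouse are given for 11 members named in the rule and for the member of smallest p in each role, and the 3 further complement genes of smallest p are named. C8a was added after its values were seen. Alternatives were other scalings and filters, the Wald test of DESeq2 1.42.0, limma 3.58.1 voom with and without quality weights, edgeR without its robust option, paralog pairs summed, mice left out singly or as 28 and 40 together, and pseudocounts of 0.25 and 5.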

Additional observations from a re-analysis of the deposited data

Results flagged for a closer look

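In 6 of 60 groups of 4 mice, 1 mouse stood far from the other 3 of its genotype. Chance gives about 1 in 20 such groups, or 3 of 60, for normally distributed values. The members were measured in the same mice, so the groups are not independent and 6 against 3 cannot show an excess.

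Among Ripk1-hepKO mice, C1qa stood at 21.4 CPM in mouse 39 and at 32.1 to 33.5 CPM in the others. Masp2 stood at 162 CPM in mouse 28 and at 213 to 216 CPM in the other Ripk1-hepKO mice. Among Ripk1-Con mice, mouse 32 was the outlying one 3 times: C9 stood at 177 CPM there and at 94.1 to 99.0 CPM in the others, C5ar1 at 4.85 CPM against 1.39 to 1.74 CPM, and Cd55 at 10.3 CPM against 15.5 to 16.5 CPM. C8g stood at 148 CPM in Ripk1-Con mouse 29 and at 117 to 122 CPM in the other Ripk1-Con mice.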

How the results depend on the processing

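No complement member was called under any of the alternatives run, and 0 genes were called in all but the DESeq2 Wald test, which called 36. The median log2 fold change of the members ran from -0.07 without mice 28 and 40 to 0.19 without mouse 32. The pooled SD between mice of the median level over members was 0.23. This SD describes single mice and is not the error of a difference between groups. Of the 30 tested members, 18 changed sign when 1 mouse was left out, with ranges of -0.028 to 0.10 for C1s1, -0.0026 to 0.22 for C2, -0.23 to 0.079 for Mbl1, -0.14 to 0.20 for Mbl2, -0.038 to 0.21 for Fcna, -0.12 to 0.094 for Cfb, -0.13 to 0.34 for Cfp, -0.035 to 0.23 for C3, -0.38 to 0.042 for C6, -0.51 to 0.0063 for C8a, -0.12 to 0.27 for C8b, -0.10 to 0.026 for C8g, -0.15 to 0.36 for C9, -0.12 to 0.18 for Serping1, -0.18 to 0.0038 for C4bp, -0.086 to 0.16 for Cd55, -0.16 to 0.017 for Cd59a, -0.075 to 0.36 for Clu. The log2 fold changes that turned under other settings were 0.032 for Serping1, 0.014 for Cfb, 0.010 for Mbl2 with library size alone, 0.0048 for Serping1 with no low-count filter, 0.0019 for Serping1 with 1 CPM in 4 libraries, 0.0080 for Serping1, 0.0096 for Mbl2 with limma voom, 0.018 for C4bp, -0.0055 for Clu, 0.019 for Mbl2, -0.070 for Cfp with limma voom with quality weights, -0.049 for Fcna, -0.20 for Clu, -0.14 for C3, -0.011 for C1qc, -0.30 for Cfp, -0.086 for C2, -0.0053 for C1qb, -0.019 for C1s1 without mice 28 and 40. In each case the cause was not tested. The intervals given are for single genes and were not adjusted for the 15234 genes tested, so they do not give the limit of detection. By edgeR's quasi-likelihood test, 1017 genes had an unadjusted p under 0.05, and 0 were called at an FDR of 0.05. At 4 mice per group a true difference could thus be missed, and the smallest detectable difference was not computed. No paired analysis was possible because the groups share no mouse numbers. The correlations kept their side of 0.05 with pseudocounts of 0.25 and 5. Without mice 29 and 40 those of C3ar1 and C5ar1 turned to -0.14 and -0.051, and those of C1qa, C1qb, C1qc and C3ar1 lost p under 0.05.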
